A study of Homo sapiens with 12 samples.

Results

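The mitochondrial ribosome is the ribosome inside mitochondria that makes the few proteins still encoded by mitochondrial DNA, all of them parts of the respiratory chain and ATP synthase. Its rRNAs come from mitochondrial DNA, whereas every one of its proteins is encoded in the nucleus, made in the cytosol and imported. The nuclear genes are named MRPL for the large subunit, which joins amino acids, and MRPS for the small subunit, which reads the mRNA. MYC family transcription factors, MYCN among them, are known as activators of ribosome and mitochondrial biogenesis genes, and HAND2 is a basic helix-loop-helix factor of sympathetic neuroblasts.

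The genes described here were taken by symbol alone: every gene of the deposited expression table named MRPL or MRPS followed by a number, with an optional letter A, B or C. This gave 78 of 27514 listed genes, 49 of the large subunit and 29 of the small subunit. All 78 had a mean of at least 1 CPM (reads of a gene scaled to a fixed number of reads per sample) over the 12 samples and were among the 12680 genes tested. The split follows the symbol, and the proteins of MRPS18A and MRPS30 are known to sit in the large subunit in spite of their names, while that of MRPS36 has since been assigned to the alpha-ketoglutarate dehydrogenase complex.

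The cells were IMR32, an established human neuroblastoma line. They were electroporated with a control siRNA (siCtrl), with siMYCN, with siHAND2 or with siMYCN and siHAND2 together, called the combined knockdown below, and RNA was sequenced 72 h later from 3 samples of each group. The sample labels name 1 siRNA for MYCN (siMYCN_2) and 1 for HAND2 (siHAND2_3), so an effect of the siRNA other than through its target cannot be told apart from loss of the target, and the samples share 1 cell line. Nothing in the labels says that the replicates were separate cultures, so p-values measure the spread between these samples only.

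MYCN read 1009 ± 42.6 CPM (SD, n = 3) in siCtrl, 682 ± 22.8 with siMYCN, 849 ± 48.7 with siHAND2 and 482 ± 64.3 after the combined knockdown. HAND2 read 239 ± 15.3, 326 ± 7.5, 62.3 ± 7.06 and 73.5 ± 11.1 CPM in the same order. MYCN mRNA was thus only partly lowered, and it was lowest in the combined knockdown. Of 9 neuroblast markers 8 were tested, the siRNA targets MYCN and HAND2 among them. As deposited 6 were higher and 1 lower in siMYCN, and 2 higher and 3 lower in siHAND2. In the combined knockdown 2 were higher and 4 lower. Of all genes tested 17.4%, 12.3% and 17.4% were higher in the 3 knockdowns, and 16.3%, 30.4% and 50.1% lower. CHGA, GATA3 and ISL1 were present in every sample, while TH, the first enzyme of catecholamine synthesis, was near 0 in siCtrl at 0.120 CPM, and DBH, which makes noradrenaline, read 2.65 CPM in siCtrl, 7.99 with siMYCN, 0.929 with siHAND2 and 0.942 after both. Their part in the results below was not tested. Of 8 markers of other cells only COL1A1 passed the mean of 1 CPM, at 7.90 CPM in siCtrl and 0.781 CPM in the combined knockdown. Depth was 31.6 to 64.2 M reads (M, 1e6) a sample. The share of reads that fell in listed genes went down from 65.1% ± 0.736 in siCtrl to 62.4% ± 0.979, 59.4% ± 2.39 and 51.4% ± 7.04 in siMYCN, siHAND2 and the combined knockdown. A gene whose share of the listed reads stayed level would therefore read lower in CPM, and the median change of all tested genes was 0.01, −0.14 and −0.28 on the log2 scale. Counts of changed genes below are given on the deposited CPM and again after rescaling the samples to equal median ratios (rescaled CPM). The ratios were taken over genes with a mean of at least 5 CPM. After rescaling the same 3 medians of all tested genes were 0.01, 0.01 and 0.04. The share of all genes whose samples do not overlap siCtrl is given only as deposited.

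The promoters show what the family shares before any knockdown. RefSeq promoter windows (GRCh38.p14, 250 bases before to 50 after the start) were found for 69 of the 78 genes, and 68 of these matched GRCh37, the build of the deposited table, at a single place on the gene's strand. The windows were searched on both strands for exact letters. The E-box CACGTG, the letters bound by MYC and MAX proteins, was in 6 of 69 windows (8.70%), against 10.4% of 9663 windows of tested genes and 7.26% of all 35116 windows. The letters CCGGAAG, the core bound by ETS family factors such as GABP, were in 29 of 69 (42.0%), against 19.99% of the tested and 10.3% of all windows. CATCTG, one of the E-box forms bound by HAND and E proteins, was in 1 of 69 (1.45%, against 8.99% of the tested), and the palindrome bound by NRF1 in 1 of 69 (1.45%, against 2.40% of the tested), that of MRPL17. The window with CATCTG was that of MRPL9. No motif searched contains another. A match is a string of letters and not a measured binding site, and its absence says nothing of sequence outside the window.

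Stretches upstream of the start are printed 5′ to 3′ on the gene's strand, with GRCh37 positions and searched motifs in capitals: an E-box in MRPS18C and MRPL22, the ETS letters in MRPS26 and MRPL58, none in MRPL11, the gene with the largest fall in the combined knockdown, and the 49 bases that separate MRPL46 from MRPS11.
MRPS18C, chr4:84377009-84377084, plus strand: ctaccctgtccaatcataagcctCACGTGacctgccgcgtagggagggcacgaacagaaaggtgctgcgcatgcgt
MRPL22, chr5:154320417-154320506, plus strand: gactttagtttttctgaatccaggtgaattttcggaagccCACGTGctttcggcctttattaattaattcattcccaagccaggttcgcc
MRPS26, chr20:3026575-3026674, plus strand: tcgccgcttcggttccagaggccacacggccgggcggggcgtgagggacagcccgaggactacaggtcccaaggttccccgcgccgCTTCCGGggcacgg
MRPL58, chr17:73008532-73008621, plus strand: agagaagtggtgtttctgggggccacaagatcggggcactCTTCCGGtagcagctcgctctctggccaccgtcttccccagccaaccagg
MRPL11, chr11:66206321-66206420, minus strand: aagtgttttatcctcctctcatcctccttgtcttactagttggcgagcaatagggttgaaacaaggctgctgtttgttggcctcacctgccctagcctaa
MRPL46 to MRPS11, chr15:89010635-89010683, minus strand: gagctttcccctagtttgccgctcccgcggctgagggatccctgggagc

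In siCtrl the family was expressed throughout, from 9.02 CPM (MRPS28) to 108 CPM (MRPL3), with a median of 32.3 CPM. Levels of different genes are compared per kilobase of the canonical transcript. On that scale MRPL51 (117 CPM per kb), MRPL27 (108) and MRPL33 (96.5) were the highest of the large subunit, and MRPL22 (4.56), MRPL42 (6.12) and MRPL19 (8.79) the lowest. In the small subunit MRPS7 (80.9), MRPS24 (59.9) and MRPS21 (56.3) led, and MRPS33 (5.59), MRPS17 (7.53) and MRPS25 (8.42) came last. The value of MRPL42 rests on a canonical transcript of 15557 bases, against a median of 1175 for the large subunit. Of the 78 genes, 20 overlap another listed gene, 5 of them on the same strand; how the counting treated strand is not given in the sources used here. MRPS6 lies on the same strand as SLC5A3, which read 75.3 CPM on average against 20.8 CPM for MRPS6, so the values of MRPS6 are uncertain.

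Both subunits were lower in all 3 knockdowns, and lowest in the combined one. Summed over the 49 genes, the large subunit read 1934, 1829 and 1965 CPM in siCtrl, 1594, 1530 and 1527 with siMYCN, 1478, 1510 and 1437 with siHAND2, and 1344, 1116 and 1065 after the combined knockdown. None of the knockdown samples reached the lowest siCtrl sample, and siMYCN and siHAND2 did not overlap each other. In percent of the siCtrl mean, the large subunit stood at 81.2, 77.3 and 61.5%, and the small subunit at 79.4, 81.2 and 63.9%. After rescaling these became 81.7, 86.3 and 78.7% for the large and 79.9, 90.7 and 81.6% for the small subunit. On the rescaled CPM the combined knockdown was thus no further from siCtrl than siMYCN alone in the small subunit, and siHAND2 was the nearest to siCtrl in both. The spread between replicates was widest in the combined knockdown, where the median coefficient of variation of the 78 genes was 13.9%, against 5.55, 4.04 and 4.55% in siCtrl, siMYCN and siHAND2. In bulk RNA a change in the make-up of the cells and a change of RNA per cell cannot be told apart.

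**Figure D1:**
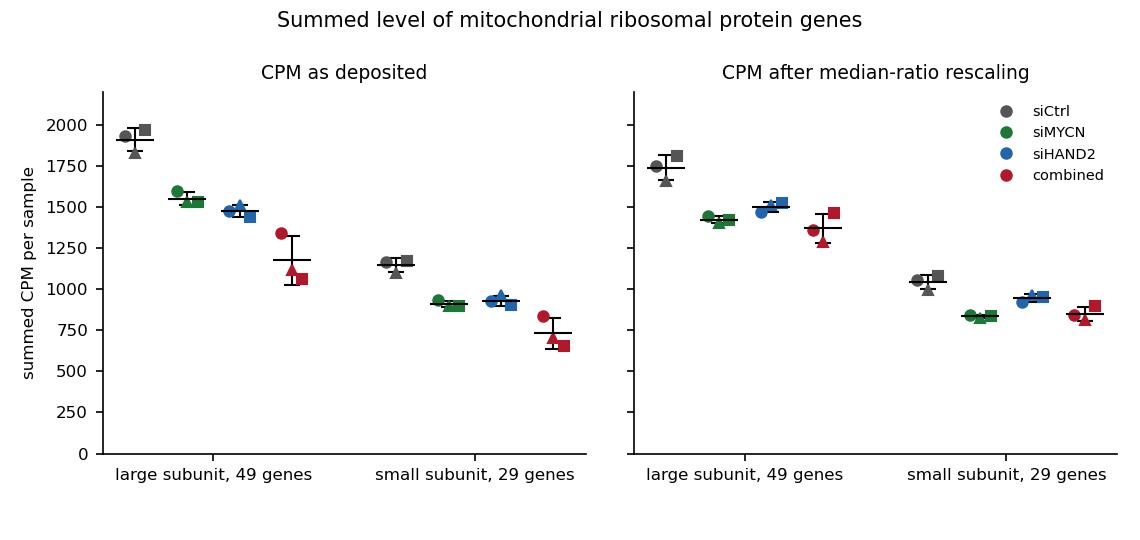
Summed CPM of the 49 large and 29 small subunit genes in each sample (circle, triangle and square: replicates 1, 2 and 3), as deposited at left and after median-ratio rescaling at right, with mean and SD (n = 3). As deposited the combined knockdown lies lowest, at 61.5 and 63.9% of the siCtrl mean; rescaled it stands at 78.7 and 81.6%, close to siMYCN.

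MYCN knockdown lowered genes of both subunits. With limma's test on log2(CPM + 1) and Benjamini-Hochberg adjusted p under 0.05, 23 of 49 large and 20 of 29 small subunit genes fell and none rose; of all genes tested 16.3% fell, 17.4% rose and 33.7% changed either way. The median log2 fold change was −0.23 for the large and −0.35 for the small subunit, with values from −0.66 to 0.10. In 63 of 78 genes all siMYCN samples lay below all siCtrl samples, against 29.6% of all genes tested. On the rescaled CPM this held for 61 genes, and 1 gene lay wholly above siCtrl. No share of all genes is given for these rescaled counts, so they have no background. After rescaling 31 large and 23 small subunit genes fell (22.5% of all genes tested), with medians of −0.22 and −0.34. The deposited counts depend on single libraries, and so do those of all genes tested. The large subunit count was 13 without siCtrl replicate 3 and 14 without any one of the siMYCN replicates. The small subunit count was 13 without siCtrl replicate 3 or siMYCN replicate 2 or 3. Calls among all genes tested went from 4273 to 3292 without siCtrl replicate 3. They were 3343, 3205 and 3202 without siMYCN replicate 1, 2 and 3.

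MRPL12, the mobile stalk protein that recruits translation factors, fell most of the large subunit in siMYCN. It read 43.5, 44.3 and 43.2 CPM in siCtrl, 28.2, 27.8 and 26.1 with siMYCN, 31.2, 27.7 and 28.1 with siHAND2, and 18.7, 17.5 and 14.9 after both. The siCtrl samples were tight and above all others, siMYCN and siHAND2 overlapped, and the combined samples lay below both. The log2 fold change in siMYCN was −0.66 ± 0.11 (SE, limma adjusted p = 4.6e-05). MRPL3, a core protein next to the catalytic centre, read 112, 99.6 and 111 CPM in siCtrl and 75.3, 68.4 and 67.9 in siMYCN, a log2 fold change of −0.60 ± 0.12 (limma adjusted p = 0.00030), with no overlap. MRPL17 fell by 0.54 on the log2 scale. In the small subunit MRPS23 (98.9, 88.1 and 95.7 CPM in siCtrl against 62.9, 61.5 and 63.2 in siMYCN; −0.58 ± 0.11, limma adjusted p = 0.00016), MRPS15 (−0.52) and MRPS27 (−0.50), a pentatricopeptide repeat protein, fell most.

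HAND2 knockdown reached more of the large subunit on the deposited CPM. There 41 of 49 large and 17 of 29 small subunit genes fell and none rose, where 30.4% of all genes tested fell, 12.3% rose and 42.7% changed. The medians were −0.38 and −0.34, against −0.14 for all genes tested. In 67 of 78 genes all siHAND2 samples lay below all siCtrl samples (45.0% of all genes tested). On the rescaled CPM 48 genes lay wholly below siCtrl and 5 wholly above, counts for which no share of all genes is given. After rescaling 28 large and 14 small subunit genes fell (24.9% of all genes tested), 1 of each rose (25.9%), and the medians were −0.22 and −0.19. The 2 that rose then were MRPL45 (0.27), which ties the ribosome to the inner membrane, and MRPS25 (0.26). The large subunit count on the deposited CPM was 25 without siCtrl replicate 1 and 26 without siCtrl replicate 3. Calls among all genes tested went from 5411 to 4308 and 4303 in the same 2 settings.

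MRPL13 fell most of the large subunit in siHAND2, from 32.1, 28.4 and 31.4 CPM in siCtrl to 17.5, 19.95 and 17.22, a log2 fold change of −0.72 ± 0.11 (limma adjusted p = 8.6e-06). It read 21.6, 20.8 and 21.1 with siMYCN and 17.19, 14.1 and 16.97 after the combined knockdown. The siHAND2 samples lay below all siMYCN samples, and the lowest of them nearly met the highest combined one. MRPL11, at the base of the stalk where translation factors are activated (−0.69 ± 0.11), and MRPL24, near the exit tunnel (−0.65 ± 0.13), followed. In the small subunit MRPS34 (−0.63 ± 0.12), MRPS28 (−0.61 ± 0.12) and MRPS26 (−0.60 ± 0.12) fell most.

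In the combined knockdown 47 of 49 large and 25 of 29 small subunit genes fell on the deposited CPM and none rose, against a background of 50.1% of all genes tested that fell, 17.4% that rose and 67.4% that changed. In 71 of 78 genes all combined samples lay below all siCtrl samples (48.3% of all genes tested). On the rescaled CPM 45 genes lay wholly below siCtrl and 3 wholly above, again without a share of all genes beside them. Both medians were −0.66, against −0.28 for all genes tested. After rescaling 31 large and 19 small subunit genes fell (33.0% of all genes tested) and 2 small subunit genes rose (37.7%), with medians of −0.32 and −0.30. The 50 genes that fell after rescaling were among the 72 that fell on the deposited CPM, and these 50 fell under each of the settings tried. In siMYCN 43 and in siHAND2 42 genes fell on both scales, and 23 and 30 fell under each of the settings tried.

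MRPL11 (chr11:66202546-66206320 of GRCh37) had the largest fall of the family. It read 48.98, 44.2 and 53.6 CPM in siCtrl, 34.1, 34.3 and 33.2 with siMYCN, 30.8, 29.6 and 29.05 with siHAND2, and 20.1, 16.3 and 15.04 after both. The groups form 4 separate steps without overlap. The log2 fold change was −1.46 ± 0.11 as deposited (limma adjusted p = 3.1e-11) and −1.12 ± 0.07 rescaled. MRPL12 (chr17:79670400-79674557) fell by 1.32 as deposited and by 0.97 rescaled. MRPL37 (chr1:54665840-54691163) read 87.6, 92.6 and 93.5 CPM in siCtrl, 71.8, 68.7 and 69.9 with siMYCN, 65.99, 67.4 and 62.1 with siHAND2, and 48.7, 38.04 and 30.96 after both. Here too the deposited groups did not overlap, and the combined samples were the most scattered. The order of the single knockdowns turned on rescaling, where siMYCN (64.97, 62.98 and 65.01) lay below siHAND2 (65.51, 67.53 and 65.78); the log2 fold change was −1.22 ± 0.13 as deposited and −0.87 ± 0.06 rescaled. MRPL37 shares 60 bases with SSBP3 on the other strand, a gene with 90.9 CPM on average.

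MRPS34 (chr16:1821896-1823141), which binds the small-subunit rRNA and whose loss destabilises that subunit, led the small subunit. It read 54.2, 47.7 and 51.7 CPM in siCtrl, 39.8, 36.3 and 36.4 with siMYCN, 33.9, 32.6 and 31.4 with siHAND2, and 25.6, 19.4 and 17.8 after both. Again the 4 groups did not overlap as deposited, while after rescaling siMYCN (36.02, 33.27 and 33.81) and siHAND2 (33.65, 32.72 and 33.28) did. The combined change was a log2 fold change of −1.27 ± 0.12 as deposited (limma adjusted p = 1.0e-09) and −0.92 ± 0.06 rescaled. MRPS2 (chr9:138392477-138396520; −1.16 ± 0.13, rescaled −0.82) and MRPS26 (chr20:3026675-3028897; −1.14 ± 0.12, rescaled −0.80) came next. MRPS26 read 30.2, 28.1 and 29.7 CPM in siCtrl and 15.6, 11.9 and 11.1 in the combined knockdown, with siMYCN and siHAND2 between them.

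**Figure D2:**
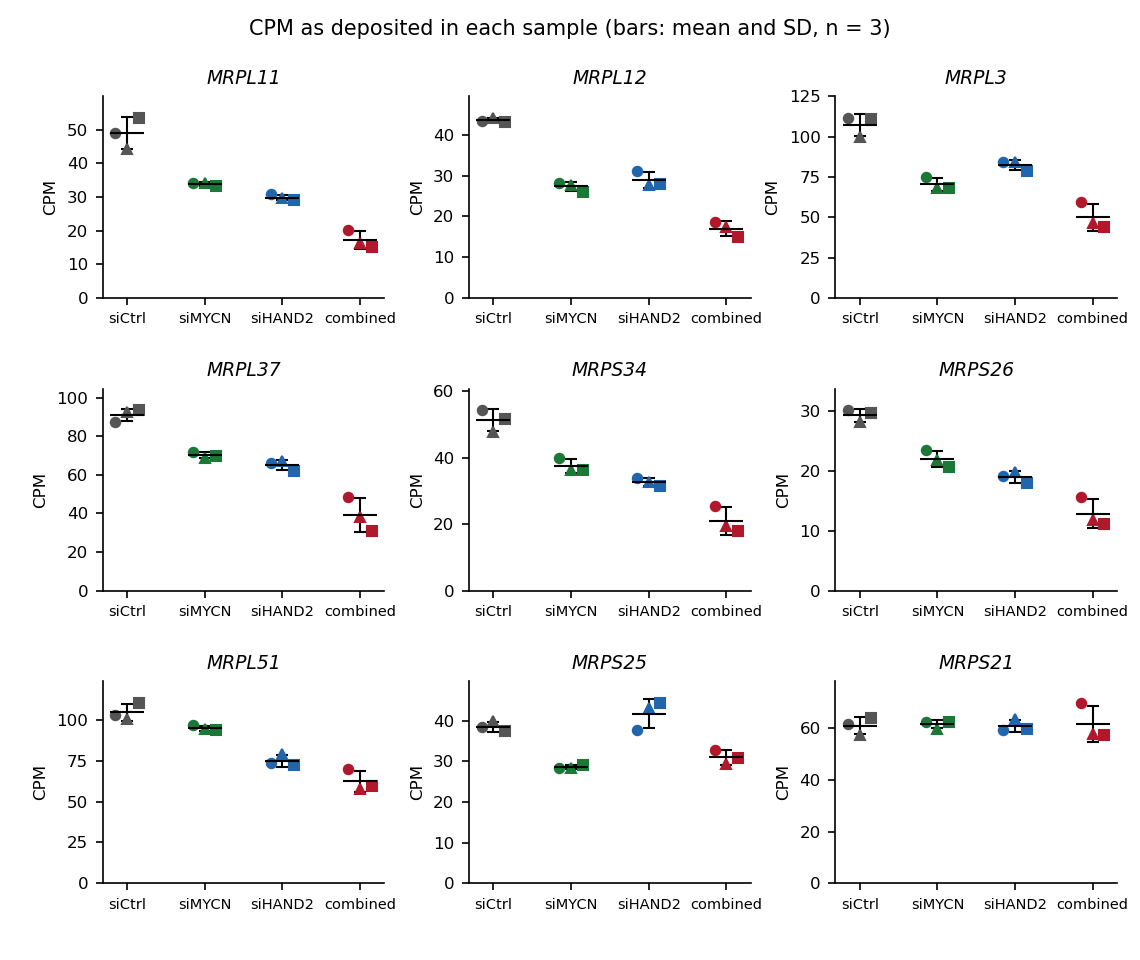
CPM as deposited of 9 genes in each sample (circle, triangle and square: replicates 1, 2 and 3), with mean and SD (n = 3), on linear axes from 0. MRPL11, MRPL37 and MRPS34 step down over the 4 groups without overlap, MRPL51 is lower in siHAND2 than in siMYCN, MRPS25 is lower in siMYCN than in siHAND2, and MRPS21 stays between 57.4 and 69.9 CPM throughout.

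**Figure D3:**
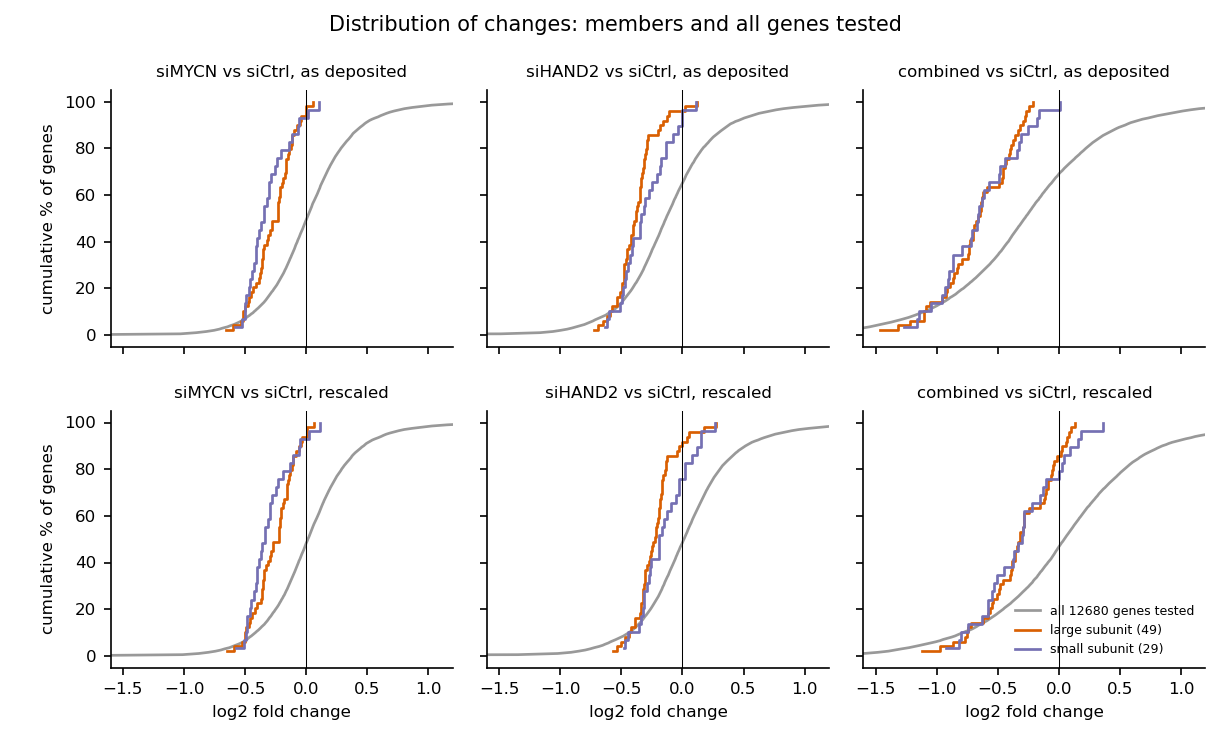
Cumulative percentage of genes at or below each log2 fold change, for all 12680 genes tested (grey), the large subunit (orange) and the small subunit (purple), as deposited above and rescaled below. At their medians both subunits lie left of all genes in each panel (combined, as deposited: −0.66 against −0.28), and their curves end well before the right tail of all genes.

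Among the proteins chosen for their roles, the stalk did not move as 1 unit. MRPL10, which anchors MRPL12, read 50.7 ± 2.39 CPM in siCtrl, 41.6 ± 3.70 with siMYCN, 51.5 ± 0.794 with siHAND2 and 37.9 ± 8.92 after both. As deposited it was called only in the combined knockdown (−0.44 ± 0.13, limma adjusted p = 0.0049), and rescaled only in siMYCN (−0.27 ± 0.07, limma adjusted p = 0.0068). The core proteins MRPL2 and MRPL4 fell in all 3 knockdowns on both scales, MRPL2 by 0.36, 0.41 and 0.85 and MRPL4 by 0.50, 0.54 and 1.05 as deposited. MRPS12 of the decoding centre also fell in all 3 on both scales, by 0.49, 0.46 and 0.91 as deposited. MRPS5, near the mRNA entry, was called in none, with a combined value of −0.25 (95% interval −0.49 to −0.01, limma adjusted p = 0.057) that became 0.10 rescaled.

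The 3 MRPS18 paralogs occupy different places in the ribosome and were not called alike. MRPS18B fell by 0.46, 0.45 and 0.90 and MRPS18C by 0.29, 0.42 and 0.67, in all 3 knockdowns on both scales. MRPS18A, whose protein sits in the large subunit, was called as deposited only in the combined knockdown (−0.48 ± 0.11, limma adjusted p = 0.00069) and rescaled only in siMYCN (−0.24 ± 0.06, limma adjusted p = 0.0046). No test of the difference between paralogs was made. MRPS18B and MRPS18C both overlap another listed gene.

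Several members are known from inherited deficiencies of the respiratory chain. Of these MRPS7, an early-binding head protein, fell in all 3 knockdowns on both scales, by 0.41, 0.43 and 0.66 as deposited. MRPS22 was called only in the combined knockdown as deposited (−0.44 ± 0.11, limma adjusted p = 0.0015), and rescaled only in siMYCN (−0.23 ± 0.09, limma adjusted p = 0.043). MRPL44 read 35.5 ± 1.37 CPM in siCtrl, 35.5 ± 1.87 with siMYCN, 31.2 ± 1.59 with siHAND2 and 29.6 ± 5.24 after both, whose samples overlapped siCtrl. Its combined change of −0.27 was called as deposited (limma adjusted p = 0.047) and was 0.08 with no call after rescaling. MRPS30 and MRPL41 were chosen apart from the genes of these inherited deficiencies. MRPS30 fell in siMYCN and in the combined knockdown on both scales (−0.35 and −0.72 as deposited), and its value in siHAND2 was −0.14 with no call. MRPL41 fell in siHAND2 and the combined knockdown as deposited (−0.32 and −0.46) and in neither rescaled.

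Seen across the single knockdowns as deposited, 36 members fell in both, 22 in siHAND2 and not siMYCN, 7 in siMYCN and not siHAND2, and 13 in neither; these classes come from the threshold and do not show that the single knockdowns differ. Of all genes tested 10.7%, 19.7%, 5.62% and 64% fell into the same classes, so that the share lower in both is where the members lie farthest above the background. The 36 fell in the combined knockdown too, as did 1352 of the 1358 genes lower in both among all genes tested. The 7 were MRPL19, MRPL30, MRPL42, MRPS6, MRPS25, MRPS27 and MRPS30, and 21 of the 22 were large subunit genes, MRPS33 being the other. After rescaling 37 fell in both, 5 in siHAND2 and not siMYCN (MRPL22, MRPL28, MRPL40, MRPL48 and MRPL51), 17 in siMYCN and not siHAND2, and 19 in neither, against 12.7%, 12.2%, 9.75% and 65.4% of all genes tested. Of the 13 as deposited, 8 fell in the combined knockdown: MRPL10, MRPL35, MRPL44, MRPL47, MRPS11, MRPS16, MRPS18A and MRPS22. Among all genes tested 8112 were lower in neither single knockdown, and 2151 of these fell in the combined one.

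The other 5 were called in none of the 3 knockdowns as deposited: MRPL45, MRPS5, MRPS14, MRPS21 and MRPS36. Among all genes tested 47% were lower in none of the 3. MRPS21 (chr1:150266262-150281415) read 61.8, 57.6 and 64.01 CPM in siCtrl, 62.6, 59.9 and 62.5 with siMYCN, 59.2, 63.5 and 59.8 with siHAND2, and 69.9, 57.7 and 57.4 after both. All 4 groups overlapped, and the 95% interval of the combined log2 fold change was −0.22 to 0.23. After rescaling MRPS21 rose in the combined knockdown by 0.36 ± 0.07 (limma adjusted p = 0.00021) and MRPS14 by 0.18 ± 0.05 (limma adjusted p = 0.0048). MRPS36 was called on neither scale, with combined values of −0.18 as deposited and 0.15 rescaled.

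The single knockdowns were set against each other directly. As deposited 1 large subunit gene was lower and 7 were higher in siMYCN than in siHAND2, and 2 small subunit genes were lower, where 8.98% of all genes tested were lower, 26.1% higher and 35.0% called either way. The 7 were MRPL22, MRPL28, MRPL40, MRPL41, MRPL49, MRPL51 and MRPL55. MRPL51 (chr12:6601316-6602472) read 103, 100.97 and 111 CPM in siCtrl, 96.9, 94.6 and 94.2 in siMYCN and 73.6, 79.4 and 72.4 in siHAND2, so that siMYCN stood just under siCtrl and siHAND2 clear of both. The difference was 0.34 ± 0.11 (limma adjusted p = 0.018), and after rescaling it was 0.19 ± 0.07 (limma adjusted p = 0.040). Blocking on the replicate number took the large subunit count from 8 to 14, 4 lower and 10 higher. Without siMYCN replicate 1 or 3 it was 2, and without siMYCN replicate 2 or siHAND2 replicate 1 it was 4. Without siHAND2 replicate 2 or 3 it was 3. Without combined replicate 1 or 3, which enter only through the shared spread, it was 20 or 18. Calls among all genes tested were 4443 with every sample and 5163 with the block. They were 3396, 3261 and 3416 without siMYCN replicate 1, 2 and 3, and 3757, 3485 and 3471 without siHAND2 replicate 1, 2 and 3. Without combined replicate 1 or 3 they were 5842 or 6082.

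Median-ratio rescaling turned the balance of this comparison, with 9 large subunit genes lower and 3 higher in siMYCN and 8 small subunit genes lower; 22.2% of all genes tested were lower and 22.4% higher. Rescaling to the sum of listed genes did not turn it for the large subunit, where 6 genes were lower and 9 higher. It gave 5 small subunit genes lower. All genes tested leaned the same way as the large subunit in that setting, with 1992 of 12680 lower and 3777 higher. MRPL28, MRPL41 and MRPL51 stayed higher in siMYCN on both scales, and MRPL30, MRPS6 and MRPS25 stayed lower. MRPS25 read 38.3, 39.8 and 37.4 CPM in siCtrl, 28.3, 28.4 and 29.2 with siMYCN, 37.7, 43.1 and 44.3 with siHAND2, and 32.9, 29.3 and 30.8 after both. The siMYCN samples lay below all others, and siHAND2 overlapped siCtrl. The difference between the single knockdowns was −0.52 ± 0.11 (limma adjusted p = 0.00039) as deposited and −0.67 ± 0.09 rescaled. MRPS25 overlaps NR2C2, at 58.9 CPM on average, over 7030 bases of the other strand. MRPL30 read 87.2 ± 0.743 CPM in siCtrl, 62.4 ± 1.47 with siMYCN, 80.01 ± 1.79 with siHAND2 and 56.02 ± 7.89 after both.

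Members called between the combined and a single knockdown were all lower in the combined one on the deposited CPM, and went both ways rescaled. Against siMYCN alone the combined knockdown had 32 large and 19 small subunit genes lower and none higher as deposited, where 50% of all genes tested were lower and 8.92% higher. Rescaled, 15 large subunit genes were lower and 6 higher, and 4 small subunit genes were lower and 4 higher (26.6% of all genes tested lower, 30% higher). Against siHAND2 alone 21 large and 19 small subunit genes were lower as deposited (31.5% of all genes tested) and none higher (8.75%), and rescaled 17 and 12 were lower (23.6%) and 3 and 1 higher (26.1%). The large subunit count against siHAND2 was 35 without combined replicate 1. Among all 12680 genes tested 6962 were then called in that comparison, against 5104 with every sample kept. These comparisons share the combined samples.

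The interaction term asks whether the combined change differs from the sum of the single changes on the log2 scale. No member was called by limma as deposited, where 4.01% of all genes tested were, and 1 (MRPL13, 0.34 ± 0.16) had an unadjusted p under 0.05. The median interaction was −0.04 for the large and 0.00 for the small subunit, against −0.18 for all genes tested. MRPL37 (−0.37) and MRPL11 (−0.26) had the most negative values and MRPL13 and MRPL32 (0.30) the most positive, none of them called. After rescaling MRPL13 (0.52 ± 0.15), MRPL15 (0.37 ± 0.10) and MRPS7 (0.37 ± 0.08) were called positive, which is a combined fall smaller than the sum. Among all 12680 genes tested 779 (6.14%) were then called, 212 of them positive and 567 negative. The rescaled medians were 0.14 for the large and 0.19 for the small subunit, against −0.01 for all genes tested. Without combined replicate 1, 4 large and 2 small subunit genes were called as deposited, where 35% of all genes tested were, so that the members lay below the background.

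Members with a bacterial counterpart form the old core of the ribosome, and the others were added in the mitochondrial lineage. Of 30 large subunit genes with a counterpart 18, 25 and 30 fell in siMYCN, siHAND2 and the combined knockdown, with medians of −0.35, −0.40 and −0.72. Of the 19 without one 5, 16 and 17 fell, with medians of −0.17, −0.34 and −0.45. Rescaled, the counts were 24, 20 and 23 of 30 and 7, 8 and 8 of 19. The small subunit gave 10, 9 and 12 of 15 with a counterpart and 10, 8 and 13 of 14 without, and rescaled 11, 9 and 10 of 15 and 12, 5 and 9 of 14. Of all genes tested 16.3%, 30.4% and 50.1% fell as deposited and 22.5%, 24.9% and 33.0% rescaled. No test was made between these lists.

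Changes were also set beside the promoter letters. The 6 genes with CACGTG (MRPL22, MRPL36, MRPL37, MRPL45, MRPL49 and MRPS18C) had medians of −0.24, −0.42 and −0.57 in siMYCN, siHAND2 and the combined knockdown as deposited, and the 63 without it −0.31, −0.36 and −0.68. Over the 9663 tested genes with a window the order was the other way in siMYCN, with −0.08 for windows with CACGTG and 0.01 for those without. The same held in the combined knockdown, with −0.38 and −0.29. In siHAND2 the order was that of the members, with −0.16 and −0.14. The 29 genes with CCGGAAG had medians of −0.23, −0.38 and −0.63, and the 40 without it −0.36, −0.36 and −0.71. Over the tested genes with a window they were −0.04, −0.17 and −0.34 with CCGGAAG and 0.01, −0.14 and −0.29 without. These medians are given without a test. By their listed positions MRPL46 and MRPS11 start on opposite strands with the 49 bases printed above between them. Their RefSeq starts lie 15 and 255 bases inside the listed spans. They were not called alike as deposited: MRPL46 fell in siHAND2 and the combined knockdown (−0.32 and −0.59), and MRPS11 only in the combined one (−0.32). Rescaled, MRPL46 fell in siMYCN and the combined knockdown (−0.22 and −0.24) and MRPS11 in none.

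Genes that work with these proteins were read from lists of their own. The 5 mitoribosomal proteins with other symbols (DAP3, PTCD3, CHCHD1, AURKAIP1 and GADD45GIP1) gave 1, 3 and 5 falls in the 3 knockdowns as deposited and 3, 1 and 3 rescaled; AURKAIP1 fell most in the combined knockdown (−0.76 as deposited, −0.43 rescaled). Of 25 genes of ribosome assembly and rRNA modification 10, 10 and 21 fell, and rescaled 15, 8 and 15 fell while 1, 0 and 2 rose. MTERF3, which acts in assembly of the large subunit, had the largest log2 fall in the combined knockdown (−1.22 as deposited, −0.89 rescaled). In percent of siCtrl as deposited, MRM1 of the same list, a low gene, fell further (34.3% against 40.6%). Of 17 translation factors and regulators 7, 6 and 14 fell (rescaled 11, 5 and 12, with 1 rise in the combined knockdown), led by LRPPRC, which stabilises mitochondrial mRNAs (−1.16 and −0.80 rescaled). Of 6 genes of mitochondrial DNA transcription 3, 3 and 5 fell (rescaled 3, 2 and 3, with 1 rise in the combined knockdown), led by TFAM (−1.03 and −0.67 rescaled). The shares of all genes tested that fell were 16.3%, 30.4% and 50.1% as deposited and 22.5%, 24.9% and 33.0% rescaled. Near them lay the siHAND2 counts of translation factors on both scales and of assembly genes after rescaling. The same held for 1 of 5 proteins with other symbols, in siMYCN as deposited and in siHAND2 rescaled. It also held for 2 of 6 genes of mitochondrial DNA transcription in siHAND2 rescaled.

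The ribosome's own rRNAs moved the other way. RNR1, the rRNA of the small subunit, and RNR2, that of the large subunit, are listed on the mitochondrial chromosome and were looked at after their values were seen. RNR2 read 495, 641 and 652 CPM in siCtrl, 931, 982 and 1195 with siMYCN, 1672, 1014 and 1117 with siHAND2, and 1359, 1706 and 1958 after both. RNR1 read 87.3, 88.99 and 90.1, then 122, 143 and 161, then 276, 129.8 and 156, and then 163, 218 and 253. Every knockdown sample lay above every siCtrl sample for both rRNAs, and siHAND2 replicate 1 stood far above the other siHAND2 samples. RNR1 rose by 0.66, 0.99 and 1.22 and RNR2 by 0.80, 1.06 and 1.48 on the log2 scale, all called by limma, with limma adjusted p between 1.7e-08 and 0.0077; all 6 were called rescaled too, with larger values in siHAND2 and the combined knockdown. The two-sided exact permutation test gave p = 0.1 for each of the 6 comparisons, the smallest that 3 against 3 samples allow. How rRNA was removed or mRNA selected in the libraries is not given in the sources used here, and near-identical nuclear copies of both rRNAs exist, so these levels are uncertain.

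**Figure D4:**
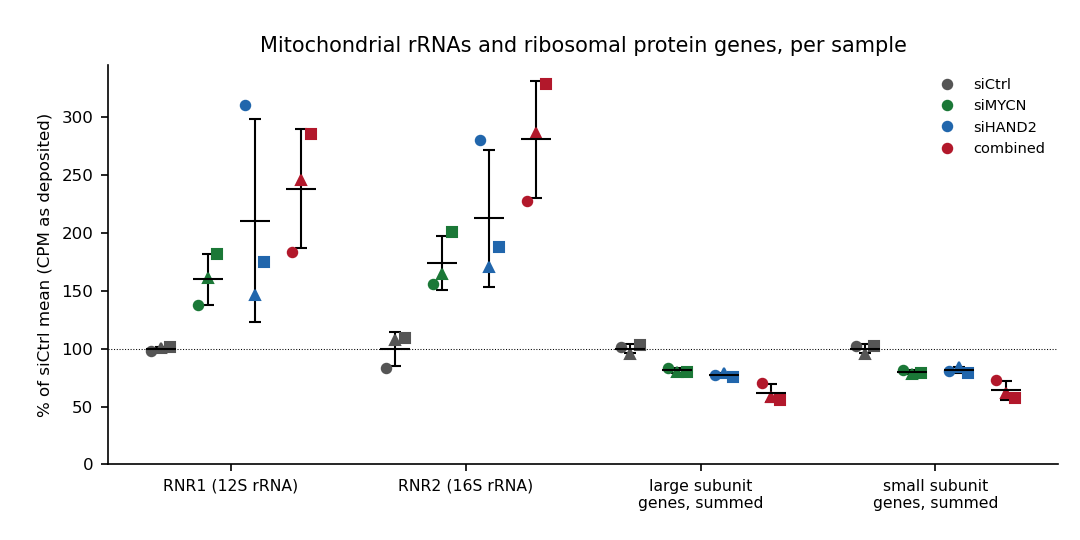
RNR1, RNR2 and the summed large and small subunit genes in each sample (circle, triangle and square: replicates 1, 2 and 3), in percent of the siCtrl mean of CPM as deposited, with mean and SD (n = 3). The rRNAs lie above and the summed protein genes below 100% in every knockdown sample.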

How the data were processed

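Per the labels and the submitters' processing notes, RNA of IMR32 cells was aligned with STAR 2.5.1 to hg19 (GRCh37) and processed in Partek. The authors deposited 1 table of CPM per gene and sample, with 0.0001 added to every value; the counting tool and strand setting are not given in the sources used here. Low values are near whole multiples of 1 read, which gave the depth, but only 80.3 to 81.7% of values of 20 to 200 reads came out whole (tolerance 0.05 reads), so the values were not treated as counts. In a sample, 3 reads are worth 0.0468 to 0.0949 CPM.

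The 78 genes and the gene lists were chosen with earlier results of these data known. limma 3.58.1 in R 4.3.3 was fitted on log2(CPM + 1) to the 12680 genes whose mean CPM reached 1, over all 12 samples in 4 groups with a trended prior variance, and p-values were adjusted over all of them (threshold 0.05, called). Fold changes and the rankings by them are on that scale and understate the change of low genes. In percent of siCtrl as deposited, MRPS28 (42.9%) lay below MRPS2 (43.7%) and MRPS26 (43.9%) in the combined knockdown. In siHAND2 it lay below MRPS34 (61.5% against 63.7%). The script was tested on simulated data. Named genes were those with chosen roles, the largest called changes per knockdown and subunit without overlap of samples, the extreme interactions, the highest and lowest levels per kilobase, and those called in none.

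The settings varied were the pseudocount (0.1), the filter (none, or a mean of 5 CPM), only the compared groups, no trend, a replicate block, 2 rescalings, and leaving out each sample. Samples with the same replicate number deviated together in every pair for siCtrl with siMYCN (correlations 0.44, 0.15 and 0.31) and for siMYCN with siHAND2 (0.33, 0.14 and 0.32), but not for the other pairs of groups; the pairing comes from these correlations and the numbers in the labels.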

Additional observations from a re-analysis of the deposited data

How the results depend on the processing

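For the 14 counts of called genes, a pseudocount of 0.1, a mean CPM of 5 and the fit without trend left each within 1.5 times its reported value, and so did no filter except for the large subunit in siMYCN against siHAND2 (5). With only the compared groups the large subunit gave 37 in siMYCN against siCtrl, 13 in combined against siHAND2 and 29 in siMYCN against siHAND2, and the small subunit 10 and 8 in the latter pair. With the replicate block 1 count moved, the large subunit in siMYCN against siHAND2 (14). Median-ratio rescaling gave, for the large subunit, 31 in combined against siCtrl, 21 against siMYCN, 12 in siMYCN against siHAND2 with the majority turned to lower, and 2 for the interaction; for the small subunit it gave 8 in combined against siMYCN, 8 in siMYCN against siHAND2 and 1. Rescaling to the sum of listed genes gave 31, 15 (siMYCN against siHAND2, 6 lower and 9 higher) and 1 for the large and 10, 5 and 1 for the small subunit. Rescaling with the replicate block gave, for the large subunit, 35 in siMYCN and 31 in combined against siCtrl, 14 in siMYCN against siHAND2 with the majority turned to lower, and 8 for the interaction; for the small subunit 8, 9 and 2.

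Leaving out each sample in turn, the large subunit counts ran from 13 to 31 in siMYCN, 25 to 42 in siHAND2 and 41 to 49 in combined against siCtrl, 27 to 44 in combined against siMYCN, 16 to 35 against siHAND2, 2 to 20 in siMYCN against siHAND2 (3 without siHAND2 replicate 3, with the majority turned to lower) and 0 to 4 for the interaction. The small subunit counts ran from 13 to 22, 14 to 20, 24 to 28, 14 to 25, 13 to 26, 2 to 5 and 0 to 2 in the same order. Calls among all genes tested moved as well. Against siCtrl they ran from 3202 to 5756 in siMYCN, 4303 to 6941 in siHAND2 and 7833 to 9340 in combined. The combined change of MRPL44 turned from −0.27 to 0.0801 by median-ratio rescaling, with or without the block, and 0.0706 by listed genes. The cause of these changes was not tested, beyond the fewer samples or the scale that each setting brings. The lowest group mean of any member, MRPS28 in the combined knockdown at 3.87 CPM, was far above the worth of 3 reads. The effect of depth on the calls was not tested.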
